A study of Mus musculus with 6 samples.

Results

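Transforming growth factor beta (TGF-beta) and activin are secreted dimers that act on cells through paired serine/threonine kinase receptors and the transcription factors SMAD2 and SMAD3. Here 10 genes of this system were followed in ribosome-bound mRNA taken by a tag aimed at astrocytes, out of 23955 genes in the files. They were taken by their symbols: the TGF-beta ligand genes Tgfb1, Tgfb2 and Tgfb3, the latent TGF-beta binding protein (LTBP) genes Ltbp1, Ltbp2, Ltbp3 and Ltbp4, the activin subunit genes Inhba and Inhbb, and the related ligand gene Gdf10. All 10 were found. TGF-beta is made as a precursor whose propeptide stays wrapped around the mature ligand and keeps it latent. An LTBP can be bound to that propeptide and anchors the complex in the extracellular matrix, where integrins or proteases release the ligand. In the brain, TGF-beta acts on microglia, astrocytes and synapses, and activin A is a secreted factor raised by neuronal activity.

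The 6 libraries came from mice of genotype Slc1a3 +/- GFP+ Rpl22HA fl/fl of strain C57BL/6. They combined the inducible Cre allele Slc1a3tm1(cre/ERT2)Mgoe, the floxed tagging allele of line B6N.129-Rpl22 tm1.1Psam/J and a CAG-driven EGFP reporter transgene. Tamoxifen, gavaged 3 times at 48-hour intervals from the age of 9 weeks, activated a Cre recombinase at the Slc1a3 (Glast) locus, so that cells using this locus carried haemagglutinin-tagged Rpl22 in their ribosomes. Mice of both sexes were 3 months old, and each library pooled 3 mice. Of the libraries, 3 were from diencephalon, leaving out tissue bordering the third ventricle, while the other 3 held grey matter of the cortex, dissected clear of the meninges and of white matter. All libraries shared the genotype, with Slc1a3 labelled as heterozygous, and the tamoxifen, and region is the only difference the labels give. Whether the regions came from the same mice is not stated, so p-values measure the spread between these pools.

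Library totals ran from 1733145 to 2334237 expected counts, of which the 10 genes took 244 to 402. The gene driving Cre, Slc1a3, was at 720 to 783 CPM (counts scaled to library size) in the diencephalic libraries and at 743 to 1259 CPM in the cortical ones. Slc1a3 was called 1.40-fold lower in diencephalon, with a log2 difference of -0.49 ± 0.16 (edgeR adjusted p = 0.0244), although cortical grey matter replicate 3 overlapped the diencephalic libraries. The call held in 10 of 18 alternatives. It was lost without diencephalon replicate 1, 2 or 3 (0.0803, 0.0817 and 0.0637), without replicate 1 or 2 of cortical grey matter (0.0849 and 0.157) and on the TPM scale (0.362), in a range of adjusted p from 6.46e-06 to 0.399. Rpl22, the tagged ribosomal protein gene, had a log2 difference of -0.24 ± 0.23 (edgeR adjusted p = 0.474). The astrocyte marker sum was 1.78-fold lower in diencephalon, and none of the 12 markers was at 0 in every library. Slc1a2, Glul and Aldoc weighed most in it, at 16212, 6121 and 3724 of 29701 CPM in cortical grey matter. Of the 12 markers, 7 were called as lower and 5 did not pass, with a median log2 difference of -0.49. Of those 5, Gja1 and Fgfr3 had a higher mean in diencephalon. Markers of cells outside the labelled type were present as well. Relative to cortical grey matter, diencephalon had 5.87-fold less of the meningeal and fibroblast sum, 6.24-fold less of the cortical excitatory neuron sum and 2.23-fold more of the oligodendrocyte sum. No marker of these lists was at 0 in every library. Among the cortical libraries, replicate 3 was the odd one: its counts differed from replicates 1 and 2 with chi-square values of 7.47 and 6.48 per degree of freedom, while those differed from each other with 2.71. Diencephalon replicate 2 and cortical grey matter replicate 3 held 8.44 and 0 CPM of summed Y-linked genes, against 145 to 166 in the other libraries. Fewer cells of a type and less mRNA per cell cannot be told apart in such libraries.

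The Ltbp1 gene has 2 annotated starts, and its promoters are shown because Ltbp1 was the member that differed between the regions. Each window runs from 250 bases before the start to 50 after it on the plus strand of GRCm38.p6, from RefSeq, chr17:75005279-75005578 for the upstream and chr17:75178531-75178830 for the downstream start. Capitals mark a cyclic AMP response element (TGACGTCA) in the upstream window and a pair of CAGACA boxes, the core letters of a SMAD element, in the downstream one, where they read TGTCTG on this strand.
Ltbp1 upstream start: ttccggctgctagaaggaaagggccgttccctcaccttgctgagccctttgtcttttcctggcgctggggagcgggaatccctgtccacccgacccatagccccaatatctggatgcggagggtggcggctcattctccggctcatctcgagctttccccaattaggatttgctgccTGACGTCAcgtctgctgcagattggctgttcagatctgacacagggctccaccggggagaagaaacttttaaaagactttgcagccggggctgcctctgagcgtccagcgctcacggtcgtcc
Ltbp1 downstream start: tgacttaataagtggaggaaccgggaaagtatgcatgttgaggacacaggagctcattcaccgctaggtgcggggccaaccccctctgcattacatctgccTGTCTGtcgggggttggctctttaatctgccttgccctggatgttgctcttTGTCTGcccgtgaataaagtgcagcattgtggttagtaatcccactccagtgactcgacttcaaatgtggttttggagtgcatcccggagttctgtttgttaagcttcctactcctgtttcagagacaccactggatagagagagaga

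Matching by symbol gave 12 promoter windows for 9 of the 10 members; Tgfb3 was not matched. Letters were searched on both strands, with overlaps between motifs allowed. TGACGTCA was in 1 of the 12 windows, the upstream one of Ltbp1, and in 1.79% of all 32851 windows of this length. CAGACA was in 3 of 12, in Tgfb2, Ltbp3 and the downstream window of Ltbp1, and in 21.0% of all windows. The AP-1 letters TGANTCA were in 1 of 12, that of Ltbp3, against 7.81%, and TATAAA in 2 of 12, those of Tgfb2 and Inhba, against 13.6%. These matches describe the sequences only.

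The files speak to the Ltbp1 start in part, since RSEM, the authors' quantifier, reports a gene length weighted by the transcripts it assigns reads to. For Ltbp1, with the transcripts NM_019919 and NM_206958, that length was 6771 bases in 5 of the 6 libraries and 7118 in diencephalon replicate 1. Those 5 libraries were therefore assigned wholly to the shorter transcript model, and diencephalon replicate 1, with 20 reads, in part to the longer one. The GENCODE M21 transcript paired with NM_019919 starts 39 bases from the upstream start, and that paired with NM_206958 29 bases from the downstream one. These have other lengths than the RSEM models, 6671 and 5140 bases. Which name is the shorter RSEM model, and so which start that model uses, was not settled here. The weighting is an estimate from 20 to 111 reads a library.

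Comparing the regions asked which members differ in mRNA from tagged ribosomes, which also held mRNA of other cells. Of the 10 members, 8 passed the count filter, and Tgfb1 and Ltbp2 had too few reads to be tested. Among the 8, Ltbp1 fell in diencephalon, none rose, and 7 did not pass (edgeR quasi-likelihood test, adjusted p under 0.05 over 10568 genes). That is 12.5% of the tested members, against 29.6% of all tested genes called in either direction, 14.9% called as higher and 14.8% called as lower. The median log2 difference was 0.01 over the 8 members and 0.01 over all tested genes. For 2 members, Ltbp1 and Ltbp3, the 3 libraries of one region lay wholly above those of the other, or 25.0%, against 42.6% of all tested genes. Neither share of the members exceeded the background, and the only call was that of Ltbp1.

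**Figure D1:**
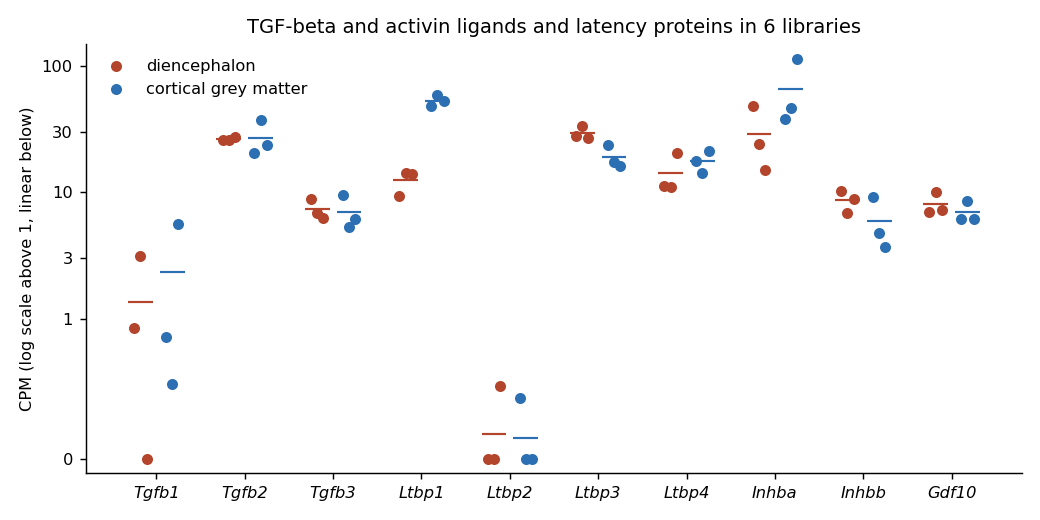
CPM (vertical axis, log scale above 1 and linear below) of the 10 members in each of the 6 libraries; points are libraries and bars are means over 3 libraries per region. Ltbp1 lies at 9.36 to 14.2 CPM in diencephalon and 48.4 to 59.1 in cortical grey matter, and the points of the other members overlap or, for Ltbp3, lie close.

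Among the TGF-beta ligands, Tgfb2 was the most abundant in each of the 6 libraries. Tgfb2 encodes the isoform that lacks the integrin-binding motif in its propeptide. It was at 26.2, 25.8 and 27.7 CPM in diencephalon replicates 1 to 3 and at 20.5, 37.3 and 23.6 CPM in cortical grey matter replicates 1 to 3. The diencephalic libraries lay close together and inside the range of the cortical ones. The log2 difference of Tgfb2, diencephalon minus cortical grey matter, was -0.02 ± 0.24 (SE), with a 95% interval from -0.52 to 0.47 (edgeR adjusted p = 0.954). Both ends of that interval lie within a 1.5-fold change. Tgfb3, whose propeptide holds the integrin-binding motif, was at 8.89, 6.85 and 6.27 CPM against 9.60, 5.32 and 6.21 CPM. These values overlapped fully, with a log2 difference of 0.04 ± 0.39 and an interval from -0.77 to 0.85 (adjusted p = 0.953). The interval of Tgfb3 reaches past 1.5-fold in both directions, so these libraries do not exclude a change of that size.

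Tgfb1, the isoform best known from microglia and blood cells, was close to the detection limit. It had 2, 6 and 0 reads in the diencephalic libraries and 2, 1 and 9 in the cortical ones. A library could hold up to 1.29 to 1.73 CPM of a gene without showing a read, for counting error only. This is the value of 3 counts on the unadjusted library totals. Diencephalon replicate 2 and cortical grey matter replicate 3 gave most of the reads. The summed reads gave a cortex to diencephalon ratio of 1.54 with an exact 95% counting interval from 0.580 to 4.35, and an exact two-sided permutation test of CPM over the libraries gave p = 0.700. Microglia markers summed to 446, 678 and 377 CPM in diencephalon and to 531, 813 and 1267 CPM in cortical grey matter. The 2 libraries with most Tgfb1 reads were thus those with the highest microglia sum of their region, and also the 2 with little Y-linked signal; the part of either in the Tgfb1 counts was not tested.

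Levels of different genes were compared as TPM, which scale counts to gene length and library. On that scale the median log2 difference of all genes was 0.22, against 0.01 on counts, so sums in TPM carry that shift while shares within a library do not. Tgfb2 made up 63.9%, 59.9% and 75.7% of the summed TGF-beta ligand level in diencephalon and 56.7%, 80.9% and 51.7% in cortical grey matter. Tgfb3 made up 25.9% ± 4.30 and 24.4% ± 11.5 (SD, n = 3 libraries each), and Tgfb1 7.63% ± 8.95 and 12.5% ± 14.4. The shares of Tgfb1, Tgfb2 and Tgfb3 overlapped between regions (exact two-sided permutation p = 0.600, 0.700 and 0.900). With 3 libraries against 3 no such test can go below 0.1. Adjusted over the 9 shares and ratios tested this way, the p of these shares were 0.9, 0.9 and 1.0. The summed ligand level was 32.2 ± 2.60 TPM in diencephalon and 29.7 ± 3.61 TPM in cortical grey matter. Neither the amount nor the mix of TGF-beta ligand mRNA could thus be separated between the regions.

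Ltbp1, whose product binds latent TGF-beta and links it to fibronectin- and fibrillin-containing matrix, was the clear exception among the members. It was at 9.36, 14.2 and 14.1 CPM in the diencephalic libraries and at 48.4, 59.1 and 52.8 CPM in the cortical ones. The groups were far apart, with a gap between 14.2 and 48.4 CPM that no library entered. Ltbp1 was 4.26-fold lower in diencephalon, with a log2 difference of -2.09 ± 0.23 and an interval from -2.56 to -1.62 (edgeR adjusted p = 3.20e-07). A decrease beyond 1.5-fold was also shown (glmTreat adjusted p = 6.74e-06), as for 5.41% of all tested genes. The call held in each of the 18 alternative settings, including those without any 1 library, with adjusted p from 2.97e-16 to 0.00323 and log2 differences from -2.19 to -1.78.

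Meningeal and fibroblast markers differed between the same libraries. Their sum was 1262, 833 and 1113 CPM in diencephalon and 6056, 8243 and 4534 CPM in cortical grey matter, 5.87-fold less in diencephalon, or 2.90-fold less without Ptgds, the largest of the 12. Cortical excitatory neuron markers summed to 907, 984 and 638 CPM against 4842, 5234 and 5694 CPM. That was 6.24-fold less in diencephalon, or 15.6-fold less without Camk2a, the largest of the 7. Mural cell markers summed to 64.9 to 94.5 CPM in diencephalon and 153 to 253 CPM in cortical grey matter. That was 2.73-fold less in diencephalon, or 1.74-fold less without Vtn. Of these 7 mural markers, 5 had a lower mean in diencephalon and 2 a higher one. The astrocyte sum was 1.78-fold lower, with 7 of its 12 markers called as lower and 5 not passing. Within diencephalon, replicate 1 had the highest meningeal sum and the lowest Ltbp1, and within cortical grey matter replicate 2 had the highest of both. The lowest Ltbp1 value in diencephalon rests on 20 reads, against 27 in each of replicates 2 and 3. The part of these cells in the Ltbp1 difference was not tested. Ltbp1 is on none of the marker lists.

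**Figure D2:**
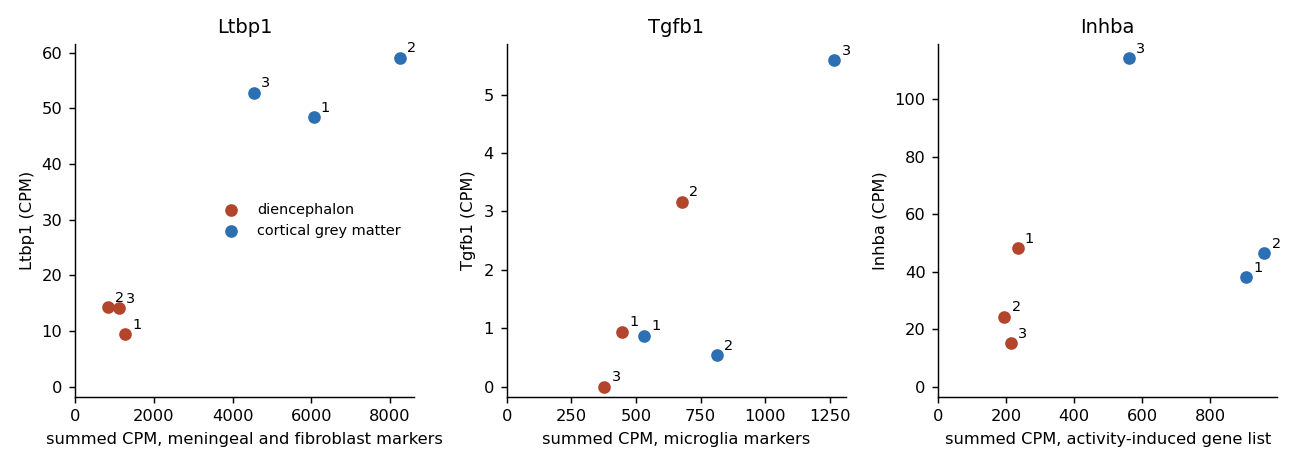
CPM of a member (vertical axes) against summed CPM of a gene list (horizontal axes) in each library, numbered by replicate: Ltbp1 beside meningeal and fibroblast markers, Tgfb1 beside microglia markers, and Inhba beside activity-induced genes. Ltbp1 and the meningeal sum both separate the regions. The highest Inhba of a region goes with the highest activity-induced sum in diencephalon (replicate 1, 48.2 CPM) and with the lowest in cortical grey matter (replicate 3, 114 CPM).

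Ltbp3, which encodes an LTBP that binds latent TGF-beta much as Ltbp1 does, pointed the other way. It was at 28.1, 33.7 and 27.2 CPM in diencephalon and at 23.6, 17.6 and 16.1 CPM in cortical grey matter. Every diencephalic library lay above every cortical one, with a log2 difference of 0.62 ± 0.23 and an interval from 0.13 to 1.10. After adjustment over all genes Ltbp3 did not pass (edgeR adjusted p = 0.0508). It passed without cortical grey matter replicate 1 (0.0346), with a minimum count of 30 (0.0420) and with a term for low Y-linked signal (0.0425), in a range over alternatives from 0.0346 to 0.191.

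The expected counts of Ltbp3 were not whole in 3 libraries, at 60.42 and 64.44 in diencephalon replicates 1 and 2 and at 26.38 in cortical grey matter replicate 3. Part of its reads there was thus divided by the authors' quantifier and is uncertain. The strand setting of the counting is not given in the sources used here, and the part of divided reads in the Ltbp3 difference was not tested.

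Ltbp4, whose product binds latent TGF-beta weakly and takes part in elastic fibre assembly, was at 11.2, 11.1 and 20.4 CPM against 17.9, 14.4 and 21.1 CPM. Diencephalon replicate 3 lay within the cortical range, and the log2 difference of Ltbp4 was -0.32 ± 0.30 with an interval from -0.94 to 0.30 (edgeR adjusted p = 0.455). Ltbp2, which encodes the family member that does not bind latent TGF-beta, had 1 read in diencephalon replicate 3, 1 in cortical grey matter replicate 1 and none in the other libraries. Its level was at or below the 3-count floor in each region, so no fold is given.

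Within the LTBP family, the gene with the largest share differed between the regions. Ltbp1 made up 14.5%, 19.3% and 18.2% of the summed LTBP level in TPM in diencephalon and 46.6%, 58.2% and 51.4% in cortical grey matter. Ltbp3 made up 60.9%, 60.6% and 46.0% against 29.9%, 22.8% and 21.0%. Neither set of shares overlapped between regions, and each reached the smallest p that 3 against 3 libraries allow (exact two-sided permutation p = 0.1, or 0.3 adjusted over the 9). Shares are parts of the same sum, so a change in Ltbp1 alone shifts the share of Ltbp3. They are thus not separate results, and Ltbp3 itself did not pass (edgeR adjusted p = 0.0508). The leading LTBP mRNA was thus Ltbp3 in all 3 diencephalic libraries and Ltbp1 in all 3 cortical ones. The pair did not simply swap, since Ltbp4 lay above Ltbp1 in all 3 diencephalic libraries. It also lay above Ltbp3 in cortical grey matter replicate 3 (27.6% against 21.0%). The share of Ltbp4 overlapped, at 26.6% ± 7.71 and 23.2% ± 4.30 (SD, n = 3 each; exact permutation p = 0.600).

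Summed over the 4 LTBP genes, the level was 33.2, 41.0 and 43.3 TPM in diencephalon and 50.5, 47.7 and 49.8 TPM in cortical grey matter. Relative to the summed TGF-beta ligand level it was 1.03, 1.18 and 1.46 in diencephalon and 1.98, 1.52 and 1.55 in cortical grey matter. The ratio was lower in each diencephalic library, with a mean log2 difference of -0.46 between regions (exact two-sided permutation p = 0.1, the smallest possible, and 0.3 adjusted over the 9). The highest diencephalic and the lowest cortical ratio lay close together. Without Ltbp1 and the nearly undetected Ltbp2, the sum of Ltbp3 and Ltbp4 was 32.2 ± 3.47 TPM in diencephalon and 23.6 ± 3.45 TPM in cortical grey matter, the opposite order and without overlap. From counts over mean length the same sum overlapped between regions, at 7.65, 8.72 and 9.23 against 8.05, 6.20 and 7.30 CPM per kilobase.

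**Figure D3:**
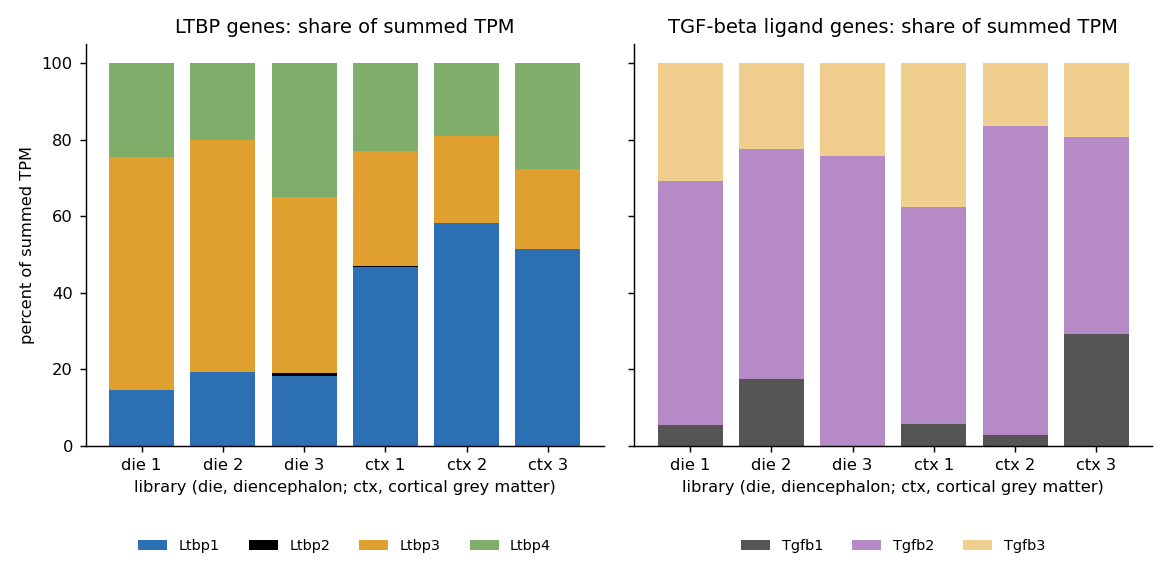
Share of each gene (percent, vertical axes) in the summed TPM of the LTBP genes (left) and of the TGF-beta ligand genes (right) in the 6 libraries. Ltbp1 takes 14.5% to 19.3% of the LTBP bar in diencephalon and 46.6% to 58.2% in cortical grey matter, while Tgfb2 takes the largest part of the ligand bar in every library.

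Inhba encodes the subunit of activin A and was the member with the highest level per length in each region. Its interval was the widest among the tested members. Its CPM were 48.2, 24.3 and 15.2 in diencephalon and 38.0, 46.3 and 114 in cortical grey matter, so that diencephalon replicate 1 lay inside the cortical range and cortical grey matter replicate 3 far above the rest. The log2 difference of Inhba was -1.13 ± 0.65 with an interval from -2.83 to 0.56 (edgeR adjusted p = 0.273). Without cortical grey matter replicate 3 the log2 difference of Inhba was -0.51 (adjusted p = 0.401), and without diencephalon replicate 1 it was -1.72 (adjusted p = 0.117, range over alternatives 0.117 to 0.493). The interval holds both no change and a decrease of several-fold, and these libraries do not separate them.

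Genes induced by neuronal activity, a list that does not hold Inhba, were set beside it. Of 9 listed, 6 were tested, 3 fell in diencephalon and none rose, with a median log2 difference of -1.78. Among all tested genes, 14.8% fell and 14.9% rose. The early transcription factor genes Egr1 and Nr4a1 were 4.51-fold and 5.06-fold lower, and Homer1, which encodes a postsynaptic scaffold, 2.61-fold lower (edgeR adjusted p = 3.85e-09, 0.00611 and 9.44e-08). Nr4a1 did not pass without diencephalon replicate 2 (adjusted p = 0.0503, range over alternatives 2.81e-15 to 0.0503). The summed activity genes were at 234, 195 and 214 CPM in diencephalon and at 906, 960 and 561 CPM in cortical grey matter. Within diencephalon, replicate 1 had the highest Inhba and the highest activity-induced sum, and within cortical grey matter replicate 3 had the highest Inhba and the lowest activity-induced sum. The part of activity or of neuronal mRNA in the Inhba values was not tested.

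Inhbb, which encodes the subunit of activin B, was at 10.3, 6.85 and 8.88 CPM in diencephalon and at 9.16, 4.79 and 3.73 CPM in cortical grey matter. Cortical grey matter replicate 1 overlapped the diencephalic libraries. The log2 difference of Inhbb was 0.51 ± 0.40, with an interval from -0.33 to 1.35 (edgeR adjusted p = 0.373). Per length, Inhba exceeded Inhbb 14.2-, 10.7- and 5.17-fold in diencephalon and 12.5-, 29.2- and 92.6-fold in cortical grey matter, ranges that overlapped (exact two-sided permutation p = 0.200 for the log2 ratio, 0.45 adjusted over the 9). Inha, whose product pairs with either subunit to form the antagonist inhibin, was at 11.1 ± 1.88 and 5.96 ± 0.890 CPM (adjusted p = 0.0719).

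Gdf10, also called Bmp3b, was at 7.02, 10.02 and 7.32 CPM in diencephalon and at 6.11, 8.52 and 6.21 CPM in cortical grey matter. These overlapped, with a log2 difference of 0.22 ± 0.38 and an interval from -0.56 to 1.00 (edgeR adjusted p = 0.698). Its closest relative, Bmp3, fell from 16.9 ± 2.70 CPM in cortical grey matter to 2.43 ± 1.72 in diencephalon, 6.93-fold (adjusted p = 5.33e-05). Bmp3 had only 14 reads over the diencephalic libraries, against 96 over the cortical ones. In diencephalon replicate 1 it was at 0.468 CPM, below the 3-count floor of 1.44 CPM on the unadjusted total, and its log2 ratio to Gdf10 was -4.24. The size of the fold and of the diencephalic ratio is uncertain for that reason. The log2 TPM ratio of Bmp3 to Gdf10 was -2.52 ± 1.53 in diencephalon and 0.96 ± 0.31 in cortical grey matter without overlap, a ratio chosen after these values were seen and given as a description. Bmp3 was the only called gene of 8 related ligands, of which 2 were tested, while 29.6% of all tested genes were called. Inhbc, Gdf1 and Gdf15 had no read in any library.

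**Figure D4:**
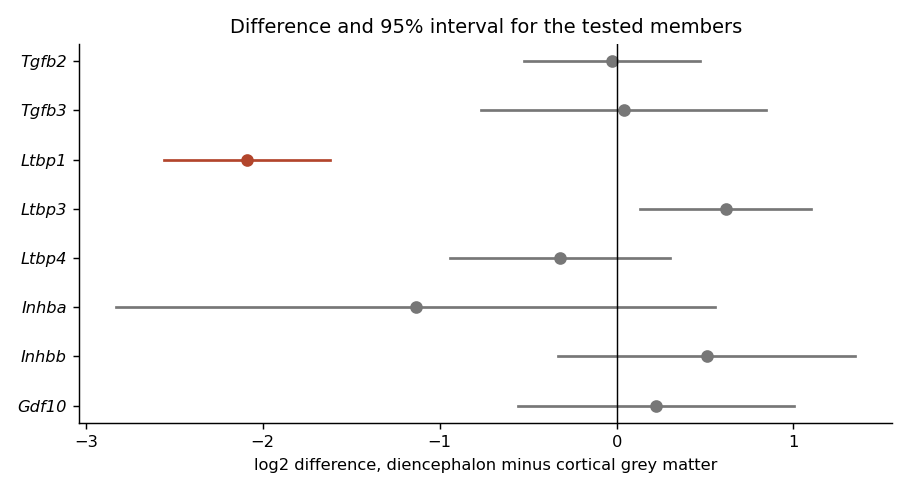
Log2 difference, diencephalon minus cortical grey matter (horizontal axis), of the 8 tested members with its 95% interval; the coloured gene passed at an adjusted p under 0.05. Ltbp1 at -2.09 stands apart, the interval of Ltbp3 runs from 0.13 to 1.10, and that of Inhba is the widest.

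Ranked by mean TPM, which allows levels of different genes to be compared, Inhba led in both regions at 78.6 ± 44.7 TPM in diencephalon and 156 ± 99.8 in cortical grey matter. The Inhba level was divided by an annotated length of 1529 bases, the shortest among the members. In diencephalon Ltbp3 (21.7 ± 2.77 TPM) and Tgfb2 (21.3 ± 0.958) came next and overlapped. Gdf10, Ltbp4, Tgfb3, Inhbb and Ltbp1 followed, from 12.7 ± 2.69 to 6.87 ± 1.77 TPM, each overlapping the next. In cortical grey matter Ltbp1 (25.6 ± 2.10 TPM) was in place 2 and overlapped Tgfb2 (18.8 ± 5.79), and Ltbp3, Ltbp4, Gdf10, Tgfb3 and Inhbb followed from 12.1 ± 2.56 to 4.59 ± 2.30 TPM, again overlapping in sequence. Ltbp1 was in place 8 in diencephalon, and Tgfb1 and Ltbp2 closed the order in both regions.

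Over the 6 libraries, the log2 CPM pattern of Ltbp1 was most like that of Magi3 and Atp5g3 (Pearson r = 1.00 and 0.999). The 6 points fall into 2 groups, and 345 tested genes had r over 0.95.

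Genes that free TGF-beta from its latent form or hold it in the matrix moved both ways. Of 21 listed, 16 were tested, 3 rose, 3 fell and 10 did not pass, with a median log2 difference of -0.11. Among all tested genes, 14.9% rose and 14.8% fell. The integrin subunit gene Itgb8, whose product with the alpha v chain activates latent TGF-beta on astrocytes, was 1.62-fold higher in diencephalon, at 101 ± 6.90 against 61.7 ± 9.98 CPM (edgeR adjusted p = 0.00157). The fibrillin gene Fbn1, whose product binds LTBPs, was 1.76-fold higher (0.00212). Thbs1, which encodes the activator thrombospondin 1, was 2.15-fold higher, at 11.4 ± 1.53 against 5.14 ± 1.94 CPM (adjusted p = 0.0321).

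In the other direction, Fn1, which encodes the fibronectin that LTBP1 attaches to, was 4.16-fold lower in diencephalon, at 8.15 ± 1.87 against 34.7 ± 8.90 CPM (edgeR adjusted p = 8.55e-06). Itgb5 was 1.44-fold lower (0.0316) and Itgav, the alpha v chain itself, 1.27-fold lower (0.0464). The log2 TPM ratio of Fbn1 to Fn1 was 2.48 ± 0.52 in diencephalon and -0.34 ± 0.31 in cortical grey matter without overlap, also a ratio chosen after the values were seen. The meningeal and fibroblast sum differed in the same direction as Fn1, 5.87-fold, and its part was not tested.

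Calls with adjusted p near the threshold depended on single libraries. Itgav failed to pass whichever library was left out (adjusted p from 0.0530 to 0.174), without a count filter (0.0672), with DESeq2 (0.0816), with a replicate block (0.0519) or on the TPM scale (0.486), in a range over alternatives from 0.0129 to 0.518. Itgb5 lost its call without diencephalon replicate 3 (0.161), or 1 or 2 of cortical grey matter (0.0877 and 0.0988), with DESeq2 (0.0568) or on the TPM scale (0.203), in a range from 0.0140 to 0.230. Thbs1 lost its call without diencephalon replicate 1, 2 or 3 (0.0671, 0.0521 and 0.118), or 2 or 3 of cortical grey matter (0.0778 and 0.0968), with DESeq2 (0.0798) or on the TPM scale (0.0749), in a range from 0.0222 to 0.118.

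Extracellular antagonists and binding proteins were lower in part. Of 13 listed, 9 were tested, 4 fell, none rose and 5 did not pass, with a median log2 difference of -0.47. Among all tested genes, 14.8% fell and 14.9% rose. The 4 listed genes that fell were Fmod, Bgn and Dcn, small leucine-rich proteoglycans that bind TGF-beta, and Htra1, a secreted protease. Fmod was at 23.3 ± 13.8 against 251 ± 75.8 CPM, 10.6-fold lower (edgeR adjusted p = 0.00170). Bgn and Dcn were 2.33-fold and 2.40-fold lower (3.12e-05 and 0.000173), and Htra1 1.84-fold lower (0.00455), a call lost on the TPM scale (0.0995, range over alternatives 8.72e-08 to 0.115). Dcn is also on the meningeal and fibroblast list, whose sum was 5.87-fold lower; its part in these decreases was not tested. The activin antagonist gene Fst had 2 reads, both in cortical grey matter replicate 1, too few to compare.

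Among receptor genes Acvr2b alone passed. Of 10 listed, 8 were tested, 1 rose, none fell and 7 did not pass, with a median log2 difference of 0.05. Among all tested genes, 14.9% rose and 14.8% fell. Acvr2b, an activin type II receptor gene, was at 23.3 ± 5.35 against 10.5 ± 3.06 CPM, 2.15-fold higher in diencephalon (edgeR adjusted p = 0.00602). The TGF-beta receptor genes Tgfbr1, Tgfbr2 and Tgfbr3 had log2 differences of 0.20 ± 0.17, -0.05 ± 0.32 and -0.01 ± 0.16.

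Of 12 listed genes for proteins of the SMAD2 and SMAD3 branch inside the cell, 11 were tested, 2 rose and 3 fell, with a median log2 difference of 0.10. Among all tested genes, 14.9% rose and 14.8% fell. The receptor-activated Smad2 was 1.44-fold higher and its partner Smad3 1.46-fold lower (edgeR adjusted p = 0.0158 and 0.0140). Smad2 lost its call without diencephalon replicate 2 or 3 (0.101 and 0.0502), without cortical grey matter replicate 2 (0.0900) and with the length trend removed (0.0599), in a range over alternatives from 0.00839 to 0.101. Smad3 did not pass without diencephalon replicate 2 (0.0815) or on the TPM scale (0.172), in a range from 0.00552 to 0.197. The inhibitory Smad7 was 2.00-fold higher, and Ski and Pmepa1, whose products also inhibit the branch, were 1.49-fold and 1.57-fold lower (adjusted p = 0.00415, 0.000732 and 0.00152). Pmepa1 was not called on TPM without a filter (0.0585, range over alternatives 0.000440 to 0.0585). Smad4, the partner of both, had a log2 difference of -0.39 ± 0.18 (0.108).

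Of 16 genes listed as raised by TGF-beta in many cells, 8 were tested, 4 fell, 1 rose and 3 did not pass, with a median log2 difference of -0.46. Among all tested genes, 14.8% fell and 14.9% rose. Col1a1, a collagen gene also on the meningeal list, was 5.52-fold lower in diencephalon, and Tgfb1i1, which encodes the focal adhesion protein Hic-5, 3.30-fold lower, at 28.3 ± 5.34 against 93.5 ± 24.6 CPM (edgeR adjusted p = 4.39e-08 and 1.35e-06). Cyr61, a matricellular protein gene, was 3.17-fold lower (0.00654). It did not pass without cortical grey matter replicate 1 (0.0562) or on the TPM scale (0.0532, range over alternatives 0.000554 to 0.0640). Pmepa1 and Smad7, shared with the list above, moved in opposite directions.

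**Figure D5:**
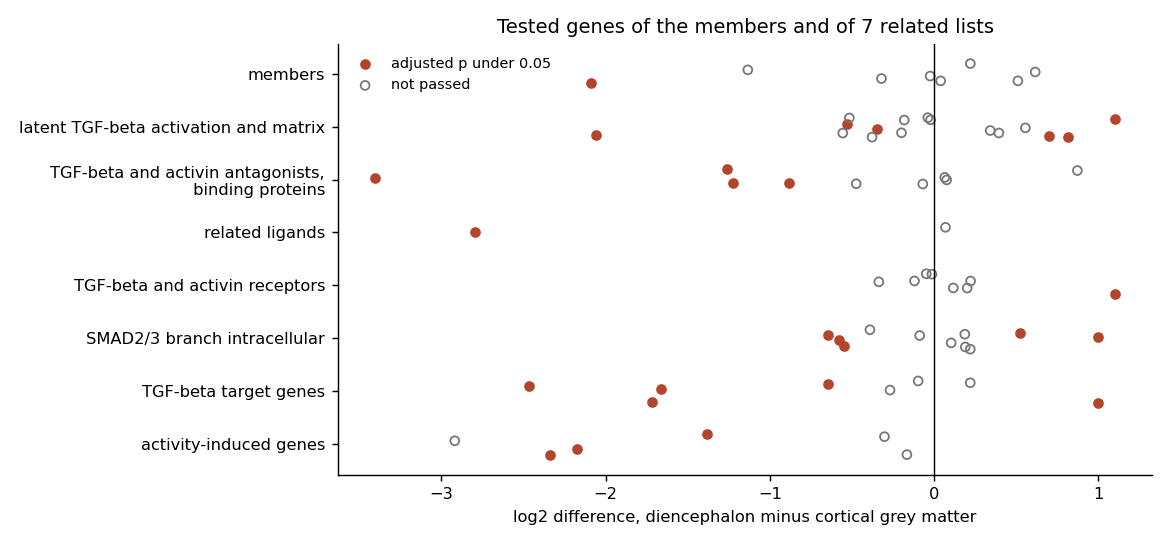
Log2 difference, diencephalon minus cortical grey matter (horizontal axis), of every tested gene of the members and of 7 related lists; filled points passed at an adjusted p under 0.05, and vertical scatter within a row carries no value. The receptors lie near 0 apart from Acvr2b, the antagonists reach to the left with Fmod, and the activation and matrix genes have filled points on both sides.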

How the data were processed

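The submitters' processing notes name RSEM and the mouse build mm9 as what the authors used. RSEM's version, the aligner and the strandedness were not given in the sources used here. Per the file headers, the deposited values are expected counts, TPM and FPKM (not used further) per gene, with lengths in bases. Per the labels' protocols, RNA from tagged ribosomes was amplified as cDNA and sequenced on an Ion Proton; no molecular identifiers are named, so intervals and floors cover counting error only.

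Expected counts were rounded. Of 23955 genes, 10568 passed filterByExpr (minimum count 10). Counts were scaled by TMM and tested with edgeR 4.0.16 (quasi-likelihood, robust, region as the only term, Benjamini-Hochberg, threshold 0.05; R 4.3.3, limma 3.58.1). CPM use TMM library sizes, while the 3-count floors use the unadjusted totals. SDs are over 3 libraries. Shares use deposited TPM with exact permutation (20 arrangements). The scripts were tested on simulated data.

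Named genes are all members, in each pathway list the called genes of smallest adjusted p (up to 4 per direction), Slc1a3, Rpl22 and Smad4, and the 3 genes most correlated with a called member; others were named after their values were seen. A gene that this rule names is not reported here. Members and lists were chosen with earlier results of these data known. Gene pairs set as ratios outside the 9 tests were chosen after values were seen. Alternatives were RLE, no filter, minimum count 30, DESeq2 1.42.0, voom, replicate block, log2(TPM + 1) and log2(TPM + 0.1), a length trend, low Y-linked signal, Rn45s left out, and each library left out.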

Additional observations from a re-analysis of the deposited data

How the results depend on the processing

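The decrease of Ltbp1 passed in all 18 alternatives. Members called as higher numbered 0 in the main setting and 1, Ltbp3, with minimum count 30, with the low Y-linked term, and without cortical grey matter replicate 1; leaving out a library gave 0 to 1. On the TPM scale the median of all genes moved from 0.01 to 0.22, 2118 genes were higher and 958 lower with log2(TPM + 1), against 1574 and 1559, or 68.9% higher against 50.2% (908 lower with log2(TPM + 0.1), 920 without a TPM filter). Leaving out a library gave 1145 to 1681 genes higher and 1186 to 1692 lower. Relative to the TPM median, Tgfb2 and Tgfb3 stayed near 0. Their log2 differences, near 0 and with intervals that include it, changed sign. Tgfb2 turned from -0.02 to 0.030 with voom, 0.0051 with the replicate block, 0.21, 0.22 and 0.21 on the 3 TPM settings and 0.27 without cortical grey matter replicate 2 (range of leave-one-out -0.21 to 0.27). Tgfb3 turned from 0.04 to -0.027 with the length trend removed, -0.13 without diencephalon replicate 1, -0.13 without cortical grey matter replicate 2 and -0.04 without cortical grey matter replicate 3 (range -0.13 to 0.35). The cause was not tested. The replicate numbers share no stated origin, and same-numbered libraries had deviation correlations of 0.06, -0.10 and -0.01. With a replicate block 1506 genes were higher and 1531 lower, Ltbp1 passed (adjusted p = 1.69e-06), Ltbp3 did not (0.0592), and Itgav no longer did (0.0519). Leaving out a library kept the direction of the difference in share of Ltbp1 (-37.5 to -31.7 percentage points) and Ltbp3 (28.8 to 36.2) and in the log2 ratios of LTBP to ligand (-0.60 to -0.34) and Inhbb to Inhba (1.05 to 2.50). The difference in share changed sign for Tgfb1 (-9.80 to 3.40), Tgfb2 (-2.27 to 12.3), Tgfb3 (-2.58 to 8.04), Ltbp2 (-0.145 to 0.231) and Ltbp4 (-0.845 to 6.67). Reads per library were 20 to 111 for Ltbp1 and 10 to 22 for Tgfb3; the part of depth in the members that did not pass was not tested.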
